A study of Mus musculus with 12 samples.

Results

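The enzymes that hydroxylate and crosslink collagen were followed in mouse osteosarcoma cells through 10 genes. They were the lysyl oxidases Lox, Loxl1, Loxl2, Loxl3 and Loxl4, the lysyl hydroxylases Plod1, Plod2 and Plod3, and the catalytic alpha subunits of collagen prolyl 4-hydroxylase, P4ha1 and P4ha2. They were chosen by gene family, with earlier results of these data known. The accession attached to each array probe assigned 17 of 39429 probes to these genes, 10 to the 5 lysyl oxidases, 4 to the 3 lysyl hydroxylases and 3 to the 2 prolyl hydroxylase subunits. Together they made up 10 of the 20144 genes with a probe.

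The study asked how far gene expression in osteosarcoma cell lines drifts during serial passaging, and how this bears on the comparison of a metastatic line with its parent. Dunn is a mouse osteosarcoma line of low metastatic activity, and LM8 is a subline of it that was selected in mice for metastasis to the lung. Cells were harvested at an early and a late passage, which gave Dunn cells at passage 25 and passage 86 and LM8 cells at passage 24 and passage 91, each with 3 replicate samples. The paper does not say whether the replicates were separate cultures. The lines carried no added transgene or drug treatment in the labels and were grown in the same serum-containing medium to the same confluence, and total RNA was hybridised to 12 single-colour Agilent mouse arrays. Each line stands for a single tumour and a single selection history, so that a difference between LM8 and Dunn is a difference between these lines and not between metastatic and non-metastatic tumours in general. The labels do not describe the sublines as single clones.

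Fibrillar collagen is modified before and after it leaves the cell. In the endoplasmic reticulum, prolyl 4-hydroxylases act on proline residues, which stabilises the triple helix, and lysyl hydroxylases act on lysine residues, which then carry sugars and take part in crosslinks. Outside the cell, copper-dependent lysyl oxidases oxidise lysine and hydroxylysine side chains of collagen and elastin, and the reactive products join neighbouring molecules. Bone matrix is mainly type I collagen, and its crosslinks are largely built on hydroxylysine. Several of these enzymes are well known targets of the hypoxia-inducible factors, and Lox in particular has been much studied in tumour stroma and metastasis.

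All levels below are log2 signals of a probe minus the log2 75th percentile of its array, so that 0 is the brightness of a probe at that percentile. A level of a probe cannot be set against the level of another, because probes bind with different strength, and only the same probe was compared between groups. A gene with several probes is represented by the brightest, and the others are given where they differ. A difference was called at a limma p-value adjusted over all probes below 0.05. Beside it stands the level used by the study, more than 2-fold at an unadjusted p-value below 0.05. In RNA from a whole culture, fewer cells of a kind and less RNA per cell cannot be told apart.

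The arrays differed in brightness along with the groups. The 75th percentile had a median of 386.5 intensity units in early Dunn cells, 756.6 in late Dunn cells, 1207 in early LM8 cells and 1365 in late LM8 cells, and between 39.1% and 59.7% of probes stood well above background. Replicate arrays correlated at r = 0.958 or higher except for late Dunn replicate 1, which correlated with the others of its group at 0.908 and 0.909. A replicate number marks a slide shared by all 4 groups, and since a group kept its place on the slide throughout, place and group cannot be told apart. After scaling, the median difference over all probes was -0.33 between late and early Dunn cells, -0.20 between late and early LM8 cells, -0.85 and -0.66 between LM8 and Dunn cells at early and late passage, and -0.78 with passages pooled. Over probes well above background on all arrays it was -0.25, -0.05, -0.41, -0.20 and -0.30 in the same order. The part of array brightness in the results was not tested. Of 9 osteoblast markers measured, 7 were well above background on every array that measured them, among them Runx2, Sp7, Alpl, Ibsp and Col1a1, and the labels call both lines osteoblastic. The muscle factors Myod1 and Myog, the epithelial genes Krt8 and Cdh1 and the endothelial gene Cdh5 were well above background on no array. Other markers of these and further cell kinds were well above background on every array that measured them. They were the endothelial gene Kdr, the blood cell genes Csf1r and Itgam, the chondrocyte gene Col2a1 and the adipocyte genes Plin1 and Pparg.

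Lox, the founding lysyl oxidase, fell with passage in LM8 cells, had a larger late minus early difference in Dunn cells that missed the adjusted threshold, and was higher in LM8 than in Dunn cells. The 3 replicates of early Dunn cells, here and below in the order 1, 2 and 3, had Lox levels of -0.37, -0.85 and 0.16. At late passage the Dunn levels were -4.49, -5.47 and -5.96, and only replicate 2 was well above background. Every late Dunn array lay far below every early Dunn array. In early LM8 cells Lox stood at 1.42, 1.45 and 1.35, and in late LM8 cells at -0.26, -0.25 and -0.06. The LM8 replicates were tight, and their early and late arrays did not overlap either. The group means were -0.35 ± 0.50, -5.31 ± 0.75, 1.41 ± 0.05 and -0.19 ± 0.11 (SD, n = 3 arrays each) for early Dunn, late Dunn, early LM8 and late LM8 cells. From the highest level to the lowest the groups ran early LM8, late LM8, early Dunn and late Dunn cells, and of these neighbours only late LM8 and early Dunn cells overlapped.

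**Figure D1:**
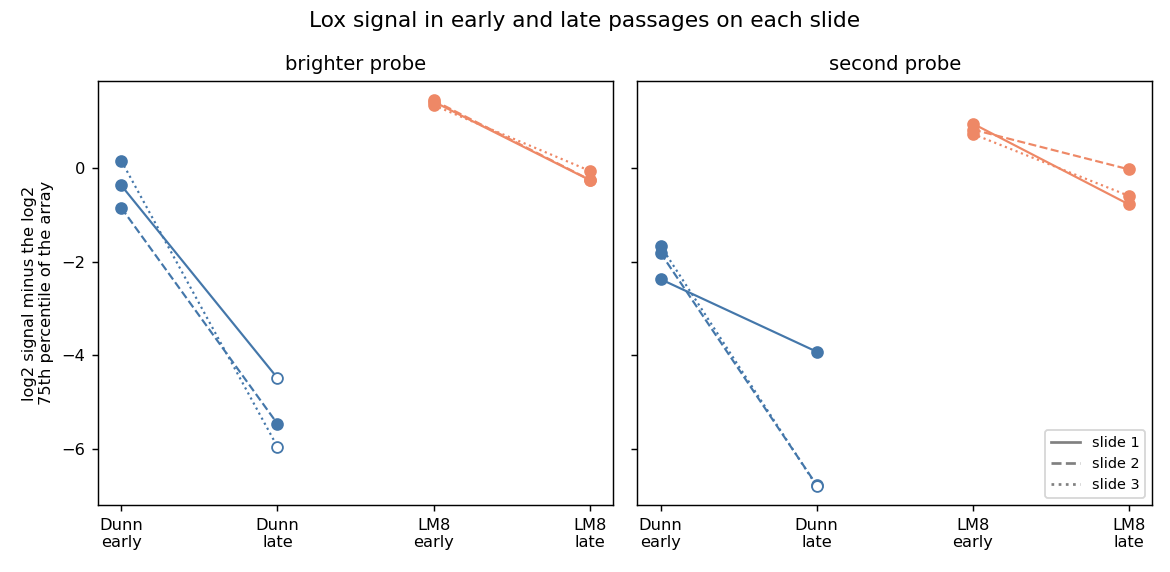
Log2 signal of the 2 Lox probes above or below its array's 75th percentile (y axis) in the 4 groups (x axis), with the arrays of a slide joined by a line. On all 3 slides and with both probes, early LM8 cells stood highest, late Dunn cells stood lowest and each line was lower at late passage, and filled points mark arrays on which the probe was well above background.

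In LM8 cells the fall of Lox with passage was 3.02-fold (log2 difference -1.59 ± 0.17 SE, limma adjusted p = 0.00638). It was found on every slide, at -1.68, -1.70 and -1.40. The call was lost in the unscaled signals and in a joint fit of 12 arrays, and over the alternatives other than leaving out an array the adjusted p ran from 0.000794 to 0.171. With slide as a block it was 0.0467, and leaving out any of the 6 arrays gave adjusted p-values between 0.0218 and 0.0384. The second Lox probe gave -1.30 and missed the threshold (limma adjusted p = 0.0552). In Dunn cells the difference was larger in size, 31.0-fold (log2 difference -4.95 ± 0.51 SE), but was not called (limma adjusted p = 0.181, unadjusted p = 9.32e-05). On the slides it was -4.12, -4.62 and -6.12. Leaving out late Dunn replicate 1, the array that correlated less well with its group, brought the adjusted p to 0.0455 and the call with it. Scaling to the array median also gave a call in Dunn cells (limma adjusted p = 0.000286), and so did 3 of the other 11 alternatives that kept all arrays, whose adjusted p reached 0.228. The size of this difference moved with the background correction, and it was -2.57 with normexp and -3.23 with a floor on dim signals. The second probe gave -3.89 (limma adjusted p = 0.534), with -1.55, -4.97 and -5.14 on the slides.

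The Dunn and LM8 passage effects on Lox differed by 3.36 on the log2 scale (±0.53 SE, limma adjusted p = 0.0313), the late minus early difference being smaller in size in LM8 cells. This test of the difference depends on single arrays. It stayed below 0.05 without early Dunn replicate 2 (0.0315) and without late Dunn replicate 1 (0.00366), and it rose to between 0.0656 and 0.118 when any of the other 10 arrays was left out. With slide as a block the adjusted p was 0.0598, and over the 10 alternatives that kept all arrays it ran from 7.52e-05 to 0.657 with 6 calls. The second Lox probe gave 2.58 (limma adjusted p = 0.646).

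Between the lines, Lox was 3.39-fold higher in LM8 cells at early passage (log2 difference 1.76 ± 0.35 SE, limma adjusted p = 0.0489) and 34.7-fold higher at late passage (5.12 ± 0.42, limma adjusted p = 0.00529). Its second probe gave 2.79 (limma adjusted p = 0.00789) and 5.37 (limma adjusted p = 0.0412). On slides 1, 2 and 3 the early difference was 1.79, 2.30 and 1.19, and the late difference was 4.23, 5.22 and 5.90. LM8 was the higher line on every slide and in every processing alternative, the unscaled signals included. The size was less certain at late passage, where 1 of 3 Dunn arrays was well above background and the log2 difference ran from 2.79 to 5.99 over the alternatives that kept all arrays. The calls were less stable than the direction. With slide as a block the adjusted p-values were 0.0843 at early and 0.0754 at late passage. The early call was kept without early Dunn replicate 2 (0.0140) and lost without any of the other 5 arrays (up to 0.205), and the late call was lost without late LM8 replicate 2 (0.0548) or late LM8 replicate 3 (0.0526). With passages pooled the difference was 3.44 ± 1.08 (SE, limma adjusted p = 0.0304, n = 6 arrays per line), and the arrays of the lines overlapped, since early Dunn and late LM8 cells had similar levels. That pooled call was lost on leaving out late Dunn replicate 1 (0.0547), early LM8 replicate 3 (0.0545) or any of late LM8 replicates 1, 2 and 3 (0.0518, 0.0646 and 0.0610), and with quantile normalization (0.0573) or a floor on dim signals (0.0606).

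Loxl2, a lysyl oxidase-like enzyme that acts on the collagen of basement membranes among other substrates, differed from Lox in that LM8 cells were the lower line. Its level was 2.26, 1.70 and 2.28 in early Dunn cells and 1.41, 1.91 and 1.65 in late Dunn cells. It was 0.56, 1.15 and 0.91 in early LM8 cells and 0.32, -0.19 and -0.02 in late LM8 cells. No LM8 array reached the lowest Dunn array. With passages pooled Loxl2 was 2.67-fold lower in LM8 cells (log2 difference -1.42 ± 0.27 SE, limma adjusted p = 0.00467), and the other probes of the gene gave -1.68 and -1.65 (limma adjusted p = 0.000686 and 0.00221). This was -0.64 relative to the median of all probes and -1.11 relative to that of probes well above background on all arrays. The direction held in the unscaled signals, where the difference was -0.25. The pooled call was lost there (limma adjusted p = 0.568) and with scaling to the array median (0.0992). At late passage the difference was 3.08-fold (-1.62 ± 0.26 SE, limma adjusted p = 0.0420), with -1.09, -2.10 and -1.68 on the slides. That late call was kept without late Dunn replicate 1 (0.0121) and lost without any of the other 5 arrays (0.0987 to 0.236), and it was lost with scaling to the array median (0.418) and with slide as a block (0.193). At early passage the difference was -1.21 (limma adjusted p = 0.0776), and in the unscaled signals it turned to 0.26. The late minus early differences of -0.42 in Dunn cells and -0.84 in LM8 cells did not pass (limma adjusted p = 0.782 and 0.199).

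Loxl4, another lysyl oxidase-like enzyme with scavenger receptor domains like Loxl2, was dim on all arrays. Its level was -3.38, -3.09 and -3.50 in early Dunn cells and -2.83, -3.67 and -4.05 in late Dunn cells. It was -6.11, -5.20 and -5.31 in early LM8 cells and -6.41, -6.44 and -6.22 in late LM8 cells. The lines did not overlap for this probe, and replicate 1 was not well above background in early Dunn, early LM8 and late LM8 cells. Loxl4 was lower in LM8 cells 4.65-fold at early passage (log2 difference -2.22 ± 0.36 SE, limma adjusted p = 0.0269), 7.17-fold at late passage (-2.84 ± 0.37, limma adjusted p = 0.0211) and 5.77-fold with passages pooled (-2.53 ± 0.29, limma adjusted p = 0.000162). On slides 1, 2 and 3 it was -2.73, -2.11 and -1.82 at early passage and -3.59, -2.77 and -2.17 at late passage. A second, dimmer probe gave -2.21 with passages pooled (limma adjusted p = 0.0120) and did overlap, with late Dunn replicate 3 at -6.06 and early LM8 replicate 2 at -5.70. The pooled difference of the brighter probe kept its sign in the unscaled signals (-1.36). A floor on dim signals reduced it to -0.26 and removed the call (limma adjusted p = 0.256), and at late passage array medians (0.0875) and normexp (0.0743) removed it as well. With slide as a block the adjusted p was 0.0835 at early and 0.125 at late passage. The early call was kept only without early Dunn replicate 1 (0.0323) or 2 (0.0109), and was lost without early Dunn replicate 3 (0.0917) or any early LM8 array (0.0995 to 0.122). The late call was kept only without late Dunn replicate 1 (0.00219) or 3 (0.0496), and was lost without late Dunn replicate 2 (0.0662) or any late LM8 array (0.122 to 0.145).

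The remaining lysyl oxidases were not called in any comparison. Loxl1, which is needed for elastic fibres, was dim and ranged from -4.77 to -2.96 over the 12 arrays, with overlapping groups. Its pooled LM8 minus Dunn difference was 0.10 ± 0.35 (SE, limma adjusted p = 0.827), and at early passage its difference of 0.16 turned to -0.91 with normexp correction (limma adjusted p = 0.0465). Loxl3 lay between -1.99 and -1.53 on all 12 arrays, and its pooled difference was -0.17 ± 0.15 (SE, limma adjusted p = 0.375), which turned to 1.00 in the unscaled signals (limma adjusted p = 0.0308).

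**Figure D2:**
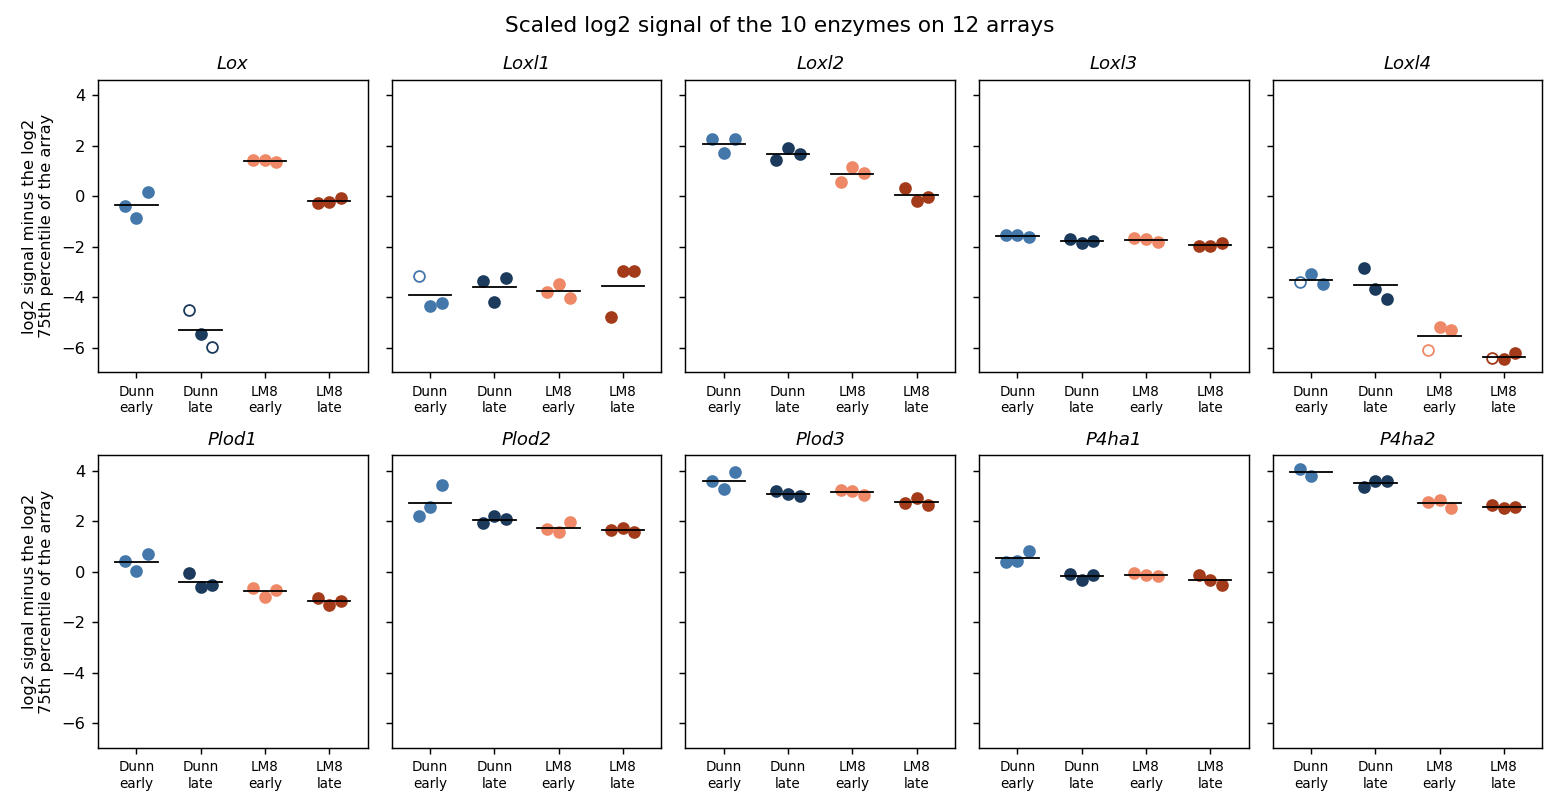
Log2 signal above or below its array's 75th percentile (y axis) for the 10 enzyme genes in the 4 groups (x axis), each point an array and each line a group mean, filled where the probe was well above background. Each late array of Lox lay below each early array of its line, Loxl2, Loxl4, Plod1 and P4ha2 had no LM8 array as high as the lowest Dunn array under this scaling, and in unscaled signals the Plod1 and P4ha2 differences changed sign.

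The 3 lysyl hydroxylases were well above background on all 12 arrays. Plod1, which hydroxylates lysines of the collagen helix, had levels of 0.43, 0.04 and 0.70 in early Dunn cells and -0.04, -0.60 and -0.53 in late Dunn cells. In early LM8 cells it stood at -0.65, -0.98 and -0.70, and in late LM8 cells at -1.02, -1.32 and -1.14. LM8 arrays of this probe lay below all Dunn arrays, although by little at the closest point. The second Plod1 probe gave -1.28 with passages pooled (limma adjusted p = 0.0193) and did overlap, with early LM8 replicate 1 at -2.55 above late Dunn replicates 2 and 3 at -2.93 and -2.63. The pooled difference was 1.95-fold (-0.97 ± 0.25 SE, limma adjusted p = 0.0209), with -1.16 (limma adjusted p = 0.0776) at early and -0.77 (limma adjusted p = 0.200) at late passage. The pooled call was lost without late LM8 replicate 2 (0.0539) or late LM8 replicate 3 (0.0502), and with scaling to the array median (0.360). Relative to the median of all probes, Plod1 differed by -0.19, and relative to that of probes well above background on all arrays by -0.67.

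Plod2 hydroxylates the telopeptide lysines that give rise to the hydroxylysine crosslinks of bone. Its level was 2.23, 2.57 and 3.43 in early Dunn cells and 1.92, 2.22 and 2.08 in late Dunn cells. It was 1.71, 1.56 and 1.98 in early LM8 cells and 1.64, 1.72 and 1.60 in late LM8 cells. The highest LM8 array overlapped the lowest Dunn array, and early Dunn replicate 3 stood above the rest. The pooled difference was 1.63-fold lower in LM8 cells (-0.71 ± 0.25 SE, limma adjusted p = 0.0398). That call was kept without any late Dunn array (0.0337 to 0.0478) and lost without any of the other 9 arrays (0.0541 to 0.0748). The Plod2 difference was 0.07 relative to the median of all probes and -0.40 relative to that of probes well above background on all arrays. Plod3, which has lysyl hydroxylase and glycosyltransferase activity, ranged from 2.65 to 3.94, and its pooled difference of -0.39 ± 0.21 was not called (limma adjusted p = 0.133). In the unscaled signals the pooled differences turned to 0.20 for Plod1, 0.46 for Plod2 and 0.78 for Plod3.

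Of the prolyl 4-hydroxylase subunits, P4ha2 was the lower in LM8 cells. P4ha2 had levels of 4.09 and 3.79 in early Dunn replicates 1 and 2, and its spot was flagged as an outlier on early Dunn replicate 3 and left out, so that n = 2 in that group. It was 3.35, 3.60 and 3.60 in late Dunn cells, 2.76, 2.84 and 2.54 in early LM8 cells and 2.65, 2.53 and 2.58 in late LM8 cells. LM8 and Dunn arrays did not overlap. P4ha2 was 2.05-fold lower in LM8 cells with passages pooled (-1.04 ± 0.19 SE, limma adjusted p = 0.00417), by -1.23 at early passage (limma adjusted p = 0.0776) and by -0.93 at late passage (limma adjusted p = 0.0936). The pooled difference was -0.26 relative to the median of all probes and -0.74 relative to that of probes well above background on all arrays. It turned to 0.13 in the unscaled signals and was not called with scaling to the array median (0.391). P4ha1, the other catalytic subunit, stood at 0.41, 0.43 and 0.83 in early Dunn cells and between -0.50 and -0.06 on the remaining 9 arrays. Its early Dunn arrays were thus above all others, while the other groups overlapped. Its passage difference in Dunn cells was -0.73 ± 0.30 (SE, limma adjusted p = 0.782), its pooled line difference was -0.40 ± 0.22 (limma adjusted p = 0.141), and a dimmer second probe went the other way in the pooled comparison, at 0.85 (limma adjusted p = 0.0315).

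**Figure D3:**
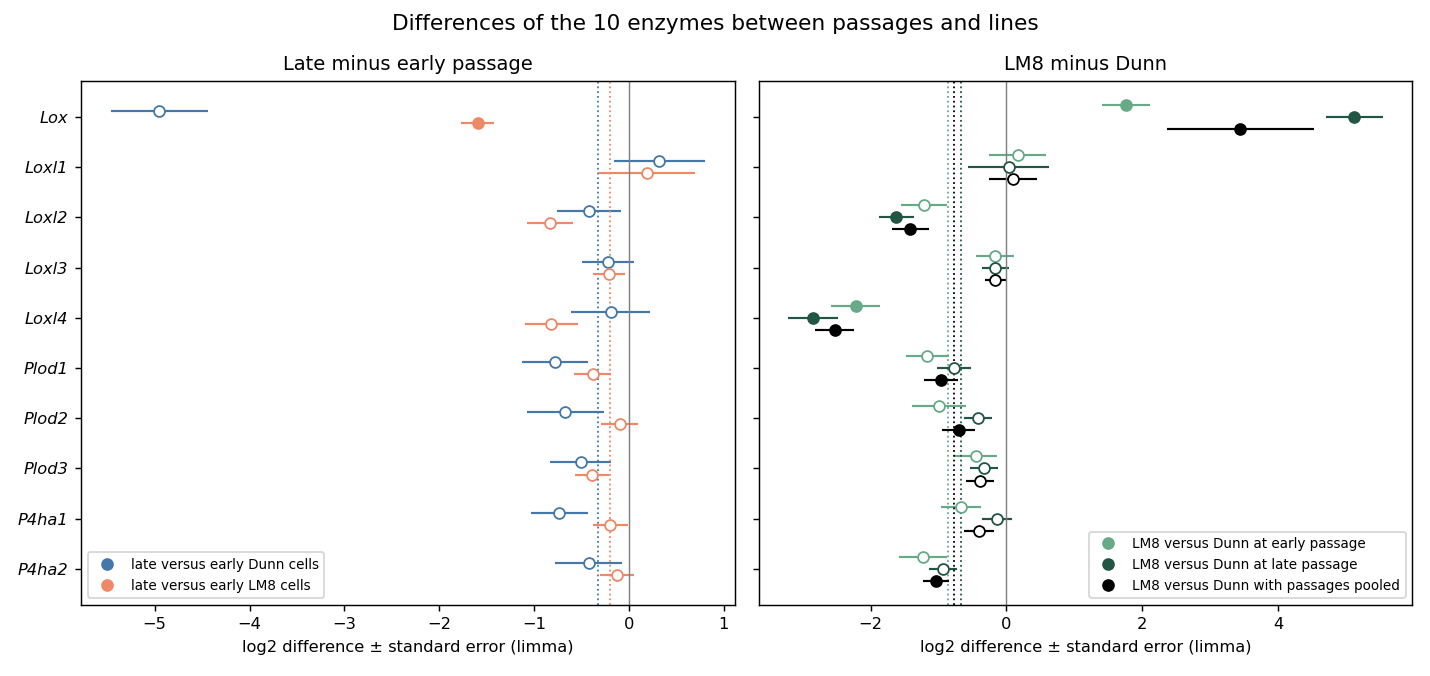
Log2 difference of each of the 10 enzyme genes (y axis) between passages and between lines, with bars for the standard error, filled points for limma adjusted p below 0.05 and a dotted line at the median difference of all probes. Lox lay farthest from the dotted line in each comparison shown. In the pooled comparison of LM8 with Dunn cells, Plod1, Plod2 and P4ha2 stayed near that line and changed sign in unscaled signals. Relative to the median of probes well above background on all arrays, they lay at -0.67, -0.40 and -0.74.

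Promoter sequence was at hand for 5 of the 10 genes, Plod1, Plod3, P4ha1, P4ha2 and Loxl4, from RefSeq on GRCm38.p6. The 250 bases before the annotated start are shown for P4ha2, Plod1 and Loxl4, the genes among these whose arrays did not overlap between the lines, because hypoxia-inducible factors bind the core ACGTG or GCGTG and genes of this kind are known hypoxia targets. Sequences run 5′ to 3′ on the strand of the gene, and capitals mark each ACGTG or GCGTG on either strand.
P4ha2, chr11:54100674-54100923, plus strand: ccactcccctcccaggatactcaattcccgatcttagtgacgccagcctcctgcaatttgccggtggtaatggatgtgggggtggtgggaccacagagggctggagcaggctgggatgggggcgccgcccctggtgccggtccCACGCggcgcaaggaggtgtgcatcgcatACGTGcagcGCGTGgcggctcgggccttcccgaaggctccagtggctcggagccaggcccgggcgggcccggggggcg
Plod1, chr4:147936777-147937026, minus strand: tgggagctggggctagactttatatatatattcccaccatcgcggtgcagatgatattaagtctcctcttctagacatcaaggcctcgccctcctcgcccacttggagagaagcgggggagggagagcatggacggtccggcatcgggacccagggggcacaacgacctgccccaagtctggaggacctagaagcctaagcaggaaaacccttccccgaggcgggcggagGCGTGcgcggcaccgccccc
Loxl4, chr19:42612807-42613056, minus strand: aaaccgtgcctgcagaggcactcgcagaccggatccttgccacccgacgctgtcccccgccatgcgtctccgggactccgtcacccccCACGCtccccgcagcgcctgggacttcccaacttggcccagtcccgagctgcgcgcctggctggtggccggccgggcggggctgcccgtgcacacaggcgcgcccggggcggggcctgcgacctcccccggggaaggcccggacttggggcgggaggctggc
P4ha2 held 3 matches, 1 ACGTG and 2 GCGTG, and Plod1 and Loxl4 held 1 GCGTG each. P4ha1 had 3 matches and Plod3 had 4, although neither gene was called by its brightest probe in the main fit. A match was common, since 38.6% of 32851 promoters of the same length held at least 1, with ACGTG in 16.6% and GCGTG in 28.2%. The palindrome CACGTG, which contains ACGTG and is the E-box of other factors, was in 6.02% of promoters and in none of these 5. The matches describe the windows and do not show binding.

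Counted over the family, Lox was the enzyme called between passages. In Dunn cells 0 of 10 were called by limma at adjusted p below 0.05, as were 0.00497% of all genes, and 1 had an unadjusted p below 0.05. Array quality weights called 5 of 10 in Dunn cells. At the level of the study 1 of 10 passed, Lox, against 4.86% of all genes. The methods' t-test called 0 there after adjustment. In LM8 cells 1 of 10 was called, Lox, against 2.82% of all genes, and the same gene was the 1 that passed at the level of the study, against 7.28%, while 3 (Lox, Loxl2 and Loxl4) had an unadjusted p below 0.05. The median difference of the 10 enzymes was -0.47 in Dunn and -0.30 in LM8 cells, beside -0.34 and -0.18 over all genes. For the difference between the passage effects, 1 of 10 was called against 0.606% of genes, and 1 passed at the level of the study against 5.30%.

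Between the lines, 2 of 10 were called at early passage, Lox higher and Loxl4 lower in LM8 cells, against 4.55% of all genes, and 5 passed at the level of the study against 36.7%. At late passage Lox, Loxl2 and Loxl4 were called, 3 of 10 against 3.84%, and 3 passed at the level of the study against 13.3%. With passages pooled 6 of 10 were called against 43.6% of all genes. Of these 1, Lox, was higher in LM8 cells against 5.69% of genes, and 5, namely Loxl2, Loxl4, Plod1, Plod2 and P4ha2, were lower against 37.9%. Of the 7 enzymes well above background on all 12 arrays, 4 were called, against 37.6% of such genes. At the level of the study 4 of 10 passed in the pooled comparison against 37.9%. By the brightest probe of each gene, the Dunn and LM8 arrays did not overlap for 4 enzymes that were lower in LM8 cells, against 13.6% of genes, and for 0 that were higher, against 2.54%. These counts change with the probe, since the second probes of Plod1 and Loxl4 overlapped and the second Lox probe was higher in LM8 cells without overlap. The median difference of the 10 enzymes was -0.83, -0.38 and -0.55 at early passage, at late passage and pooled, beside -0.76, -0.55 and -0.66 over all genes. The pooled median of the enzymes thus stood near that of all genes. Whether the shares of called or non-overlapping enzymes differ from those of all genes was not tested, and 10 genes are few for such a share.

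Some markers of other cell kinds moved with the line. All 4 adipocyte markers (Adipoq, Pparg, Plin1 and Fabp4) were called lower in LM8 cells in the pooled comparison, against 37.9% of all genes, and their log2 summed level was 3.55 to 4.30 in early Dunn, 2.87 to 3.25 in late Dunn, -2.51 to -2.36 in early LM8 and -2.67 to -2.36 in late LM8 cells. Pparg carried most of it, and Fabp4 was well above background on no array. Also called lower were 2 of 3 muscle, 2 of 4 epithelial and 2 of 4 chondrocyte markers, against the same 37.9%. None of the called muscle or epithelial markers was well above background on every Dunn array. Myod1, Myog, Cdh1 and Krt8 were so on no array, so these muscle and epithelial calls rest on signals near background. No blood cell or endothelial marker was called. Of 9 osteoblast markers, 2 were called higher, against 5.69% of all genes (Phex 3.73 and Alpl 1.03), and 2 lower (Spp1 -0.93 and Ibsp -0.81). The part of these marker differences in the enzyme differences between the lines was not tested.

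Across the 12 arrays, the genes whose pattern was most like that of a member were sought among 11290 genes by Pearson's r of the scaled levels, which describes these arrays only, since the arrays share their groups and their scaling. For Lox they were Slc43a1, Amhr2 and Gm1673 (r = 0.989, 0.989 and 0.988), for Loxl4 they were Ankrd6, Bhlhb9 and Slc40a1 (0.966, 0.965 and 0.963), and for Loxl2 they were Ets1, Gcnt2 and Chst3 (0.965, 0.965 and 0.964).

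The partners of the enzymes in collagen assembly, 26 genes for other hydroxylase subunits, chaperones, glycosyltransferases and propeptide proteases, were not called by limma with passage in either line (0 of 26 each), and at unadjusted p below 0.05 there was 1 higher and 1 lower in Dunn cells and 5 lower in LM8 cells. P3h2, a prolyl 3-hydroxylase of basement membrane collagen, was higher in LM8 cells. Its level lay between -6.37 and -4.25 on the 6 Dunn arrays, where 3 were well above background, and between -2.05 and -1.62 on the 6 LM8 arrays. The pooled difference was 3.46 ± 0.35 (SE, limma adjusted p = 5.70e-05), with 3.50 (limma adjusted p = 0.0247) at early and 3.41 (limma adjusted p = 0.0185) at late passage. The pooled call held in every alternative, with a smallest difference of 1.19 under normexp. The early difference was 0.73 with normexp (0.131), and its call was also lost with quantile normalization (0.0597), with slide as a block (0.0649), with the methods' t-test (0.0812) and without any early LM8 array (0.111 to 0.137). The late call was lost with the block (0.102), without late Dunn replicate 3 (0.0878) and without any late LM8 array (0.112 to 0.126). In the pooled comparison 8 partners were called lower, against 37.9% of all genes, 1 higher, against 5.69%, and 17 not, and the median of the list was -0.48 beside -0.66 over all genes. Among those called lower were Colgalt1, a collagen galactosyltransferase (-0.94), P4hb, the beta subunit that completes prolyl 4-hydroxylase (-0.90, measured on 1 of 3 late Dunn arrays), and Crtap (-0.62) and P3h1 (-0.60), which form the prolyl 3-hydroxylation complex of type I collagen. All 4 turned positive in the unscaled signals, to between 0.23 and 0.76, and the calls of P4hb, Crtap and P3h1 were also lost without single arrays, late LM8 replicates 2 and 3 among them. In Dunn cells P4htm, a listed transmembrane prolyl hydroxylase whose part in collagen assembly was not tested, had a passage difference of -2.80 (limma adjusted p = 0.228). Fkbp10, a collagen chaperone, gave 2.41 there (limma adjusted p = 0.745) with 1 of 3 early arrays measured.

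The substrates and scaffolds of the enzymes were 20 genes. With passage in LM8 cells 5 of 20 were called lower and 0 higher, and in Dunn cells 0 were called by limma although 5 were lower at unadjusted p below 0.05 and 4 of them passed at the level of the study. The chains of type IV collagen, the network collagen of basement membranes, were among them. Col4a2 was 0.71, 0.40 and 1.09 in early Dunn cells, -2.63, -6.04 and -5.46 in late Dunn cells. Early LM8 cells had levels of -3.78, -3.95 and -3.59, and no late LM8 array was well above background. Early Dunn cells thus stood apart from all other groups. Against the lowest well-measured signal of each late array, Col4a2 was at least 8.44-fold lower in late than in early LM8 cells (limma adjusted p = 0.000550). That bound holds for the processed signals only, since the log2 difference was -1.46 with normexp, and a higher floor on dim signals left no difference and no call (0.465). In Dunn cells the Col4a2 difference was -5.44 (limma adjusted p = 0.393). Col4a1 gave -1.65 in LM8 (limma adjusted p = 0.0478) and -3.36 in Dunn cells (limma adjusted p = 0.206). Its LM8 call was at the threshold. It was lost in 8 of the 12 alternatives that kept all arrays, slide as a block among them (0.0502), and without any array other than early LM8 replicate 3 (0.0818 to 0.189).

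**Figure D4:**
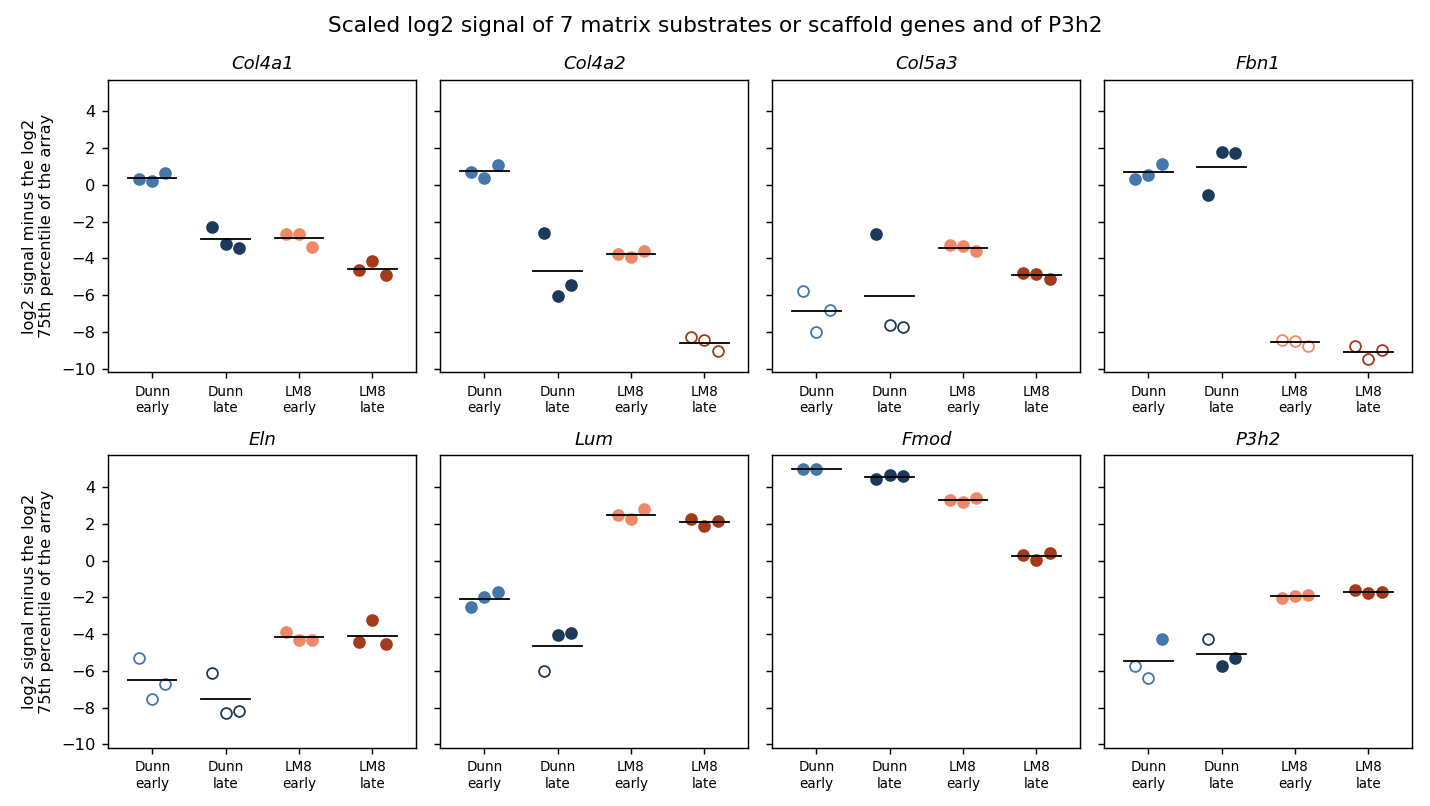
Log2 signal above or below its array's 75th percentile (y axis) for substrates and scaffolds of the enzymes in the 4 groups (x axis), each point an array, filled where well above background, and each line a group mean. Fmod was lowest in late LM8 cells, Lum was higher on all LM8 arrays than on any Dunn array, and Fbn1 was not well above background on any LM8 array.

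Fibromodulin and lumican are small proteoglycans that bind collagen fibrils, and fibromodulin also binds Lox. Fmod was 4.99 and 4.99 on the 2 early Dunn arrays that measured it and 4.46, 4.67 and 4.58 in late Dunn cells. It was 3.31, 3.17 and 3.42 in early LM8 cells and 0.30, 0.03 and 0.40 in late LM8 cells. Its fall with passage in LM8 cells was 8.35-fold (-3.06 ± 0.19 SE, limma adjusted p = 0.000929), and the passage effects of the lines differed by -2.64 (limma adjusted p = 0.0104), in the direction opposite to that of Lox. That last call was lost with scaling to the array median (0.645). Lum ran from -6.02 to -1.72 on the Dunn arrays and from 1.88 to 2.78 on the LM8 arrays, a pooled difference of 5.66 ± 0.62 (SE, limma adjusted p = 0.000112). Fbn1, the main fibrillin of microfibrils, lay between -0.56 and 1.78 on the Dunn arrays and was at least 178-fold lower in LM8 cells against the lowest well-measured signals (limma adjusted p = 1.32e-08). That bound too holds for the processed signals only, and the log2 difference was -9.65, or -5.34 with normexp and -4.41 with a higher floor, called each time. In the pooled comparison 3 of 20 substrates were called higher, against 5.69% of all genes, and 8 lower, against 37.9%, and Col5a3 and Eln, which were among the higher, were dim in Dunn cells and turned to -0.39 and -0.23 with normexp correction. Col1a1, the main collagen of bone, stood between 4.56 and 5.34 on all 12 arrays.

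Copper carriers, which supply the cofactor of lysyl oxidases, were not called by limma with passage (0 of 5 in each line, and 0 at unadjusted p below 0.05). In the pooled comparison 3 of 5 were lower in LM8 cells, against 37.9% of all genes, among them Atp7a, the pump that loads copper onto secreted enzymes (-1.28 ± 0.25 SE, limma adjusted p = 0.00619), and Slc31a2 (-0.57), which turned to 0.59 in the unscaled signals. Hypoxia targets other than the enzymes numbered 14, and 0 were called by limma with passage in either line, with 1 lower in Dunn and 1 higher in LM8 cells at unadjusted p below 0.05, while 4 were called lower in LM8 cells in the pooled comparison, against 37.9% of all genes, and 0 higher. The list's pooled median was -0.30 beside -0.66 over all genes. Ndrg1 gave -1.31 ± 0.18 (SE, limma adjusted p = 0.000553), and like Atp7a it lost its call in the unscaled signals (0.723, and 0.779 for Atp7a) and with scaling to the array median (0.118 and 0.162), whereas Egln3 (-0.67) and Pfkfb4 (-0.64) turned to 0.50 and 0.53 in the unscaled signals. The calls of Egln3, Pfkfb4 and Slc31a2 were also lost without late LM8 replicate 2. Of the hypoxia-inducible factors, Epas1 stood at 4.32 ± 0.07 in early Dunn, 2.44 ± 0.26 in late Dunn, 2.41 ± 0.14 in early LM8 and 1.25 ± 0.53 in late LM8 cells (SD, n = 3 each). It was lower in LM8 cells at early passage (-1.91, limma adjusted p = 0.0192) and with passages pooled (-1.55, limma adjusted p = 0.0304). The early call was lost in the unscaled signals (-0.44, 0.598), with slide as a block (0.0843), without early Dunn replicate 3 (0.0687) and without any early LM8 array (0.106 to 0.122). Its passage difference in Dunn cells of -1.88 was not called (limma adjusted p = 0.338) but passed at the level of the study. At that level 1 of the 2 factors was also lower with passage in LM8 cells, against 7.28% of all genes, and at late passage between the lines, against 13.3%. The paper lists Epas1 as down-regulated with passage in both lines.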

How the data were processed

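Total RNA of 4 groups (Dunn passages 25 and 86, LM8 passages 24 and 91, 3 replicate samples each) was labelled with Cy3 and hybridised to 12 Agilent mouse 4x44K arrays. The authors deposited scanner tables from Agilent Feature Extraction 10.7.3 (the version is taken from the submitters' processing notes), and the deposited intensity values used here are background-corrected processed signals per spot. The authors' own value table held the same intensities without scaling between arrays. Without controls each array held 43020 spots. Outlier-flagged spots were left out, and averaging the spots of a probe gave 39429 probes. Accessions named 26581 probes (67.4%), or 20144 genes, through the RefSeq table of GRCm38.p6.

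For this re-analysis, log2 intensity minus the log2 75th percentile of each array was fitted on the compared groups alone by lmFit and eBayes of limma (version 3.58.1, R 4.3.3), with Benjamini-Hochberg adjustment over all probes. This rests on the study's methods, which name a 2-group limma analysis. The pooled comparison set 6 LM8 against 6 Dunn arrays without passage in the model. All 10 members are named. Of the other lists up to 4 genes per list, direction and comparison are named, the largest differences among called genes that were well above background on each array of the brighter group (for passage in Dunn cells, among genes past the study's level). Where a probe was not well above background on any array of a group, a bound ("at least") was computed from the lowest well-measured signal of each array. The members and lists were chosen with earlier results of these data known. The number of arrays limits the precision, and no spot was saturated.

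Alternatives were quantile normalization, percentiles over well-measured probes, array medians, normexp (offset 50, on median signals, since the tables used here hold no mean signal), unscaled signals, a floor for dim signals, a filter that kept only well-measured probes, the mean of all probes of a gene, a joint fit of 12 arrays, the methods' t-test, array quality weights, leaving out each array, and slide as a block. Replicate numbers were the slides. Deviations of same-numbered arrays from their group means correlated between 0.227 and 0.679 for early and late Dunn cells, but between -0.018 and 0.276 for early and late LM8 cells. The fit was tested on simulated data with 37015 probes, in which log2 changes of 4 were called in 23% of cases for the passage comparison in Dunn cells, 80% in LM8 cells and 90% in the pooled comparison. Changes of 2 were called in 0%, 51% and 45% of cases in the same order, so that a missing call says little about smaller differences. In the simulation 100 probes were changed at each size and the other probes had no group difference, unlike in the data.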

Additional observations from a re-analysis of the deposited data

Results flagged for a closer look

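The passage effect on Lox differed between the lines by 3.36 on the log2 scale, late minus early in LM8 cells less the same in Dunn cells (limma adjusted p = 0.0313, 12 arrays). For this probe the late minus early difference was smaller in size in LM8 than in Dunn cells on each of the 3 slides, whereas for the second probe slide 1 gave -1.73 in LM8 and -1.55 in Dunn cells. It drew attention because the test of the difference itself passed the threshold, which rests on the dim late Dunn signals, of which 1 of 3 was well above background.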

How the results depend on the processing

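Lox kept its sign under all alternatives run in the 6 comparisons. The number of enzymes called moved as follows. For passage in Dunn cells, where 0 were called, array medians, the filter on dim probes and the joint fit gave 1 each and array quality weights gave 5, and leaving out 1 array gave 0 to 1. For passage in LM8 cells, where 1 was called, unscaled signals and the joint fit gave 0, and leaving out 1 array gave 1 throughout. At early passage the 2 calls between the lines became 4 with quantile normalization, 1 with percentiles over well-measured probes, 6 with normexp, 1 in unscaled signals, 0 with the floor, 4 with the filter, 5 with the joint fit, 0 with the methods' t-test, 0 with slide as a block and 8 with array quality weights, and 0 to 4 on leaving out 1 array. The remaining alternatives stood within 1.5 times the count. At late passage the 3 calls became 1 with array medians, 1 in unscaled signals and 0 with the block, stood at 2 with normexp and at 3 or 4 with the remaining alternatives, and were 0 to 4 on leaving out 1 array. With passages pooled the 6 calls became 2 with array medians and 3 with the floor, 4 with quantile normalization, 5 with normexp and with percentiles over well-measured probes, and 3 to 6 on leaving out 1 array. In unscaled signals there were 4 pooled calls, and Loxl3 and P4ha1 were among them, while Loxl2, Plod1, Plod2 and P4ha2 were not. With the block there were 6. The 1 call for the difference of passage effects became 0 with normexp, in unscaled signals, with the mean of all probes and with the block, and 0 to 1 on leaving out 1 array. In unscaled signals the pooled LM8 minus Dunn difference turned positive for Plod1 (0.20), Plod2 (0.46), P4ha1 (0.76), P4ha2 (0.13), Loxl3 (1.00), Colgalt1 (0.23), P4hb (0.76), Crtap (0.53), P3h1 (0.56), Slc31a2 (0.59), Egln3 (0.50) and Pfkfb4 (0.53), and the median of all probes turned with them, from -0.78 to 0.39. With normexp, Loxl1 turned to -0.91 and Col5a3 to -0.13 at early passage, and Col5a3 to -0.39 and Eln to -0.23 pooled; the floor took pooled Col5a3 to -0.062. Beyond that construction the cause was not tested. Over the enzyme differences, 625 of 698 values from alternatives and 430 of 480 from leaving out 1 array kept direction and side of the threshold, or stayed uncalled. Among these, 64 and 21 uncalled values changed sign. A further 6 values from alternatives changed sign where the main fit or the alternative gave a call. Loxl4 gave no value with the filter on dim probes for passage in LM8 cells and for the lines at early passage. The estimation of array quality weights gave convergence warnings in some fits. Each slide held an array of each of the 4 groups. The deviations of arrays on the same slide correlated between 0.227 and 0.679 for the Dunn passages, and between -0.246 and 0.436 over the other pairs of groups. The slide block changed the calls named here and no other pooled call. Signals near background in late Dunn cells (Lox) and in LM8 cells (Loxl4) limit the size of those differences.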
